A study of Mus musculus with 30 samples.

Results

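KCL-HO-1i/gemcitabine treatment was compared with vehicle in mammary tumors, using 10 of the 30 bulk RNA sequencing libraries of the series, 5 per group, chosen by their labels. KCL-HO-1i blocks the enzyme heme oxygenase-1 (HO-1), and gemcitabine is a cytotoxic nucleoside analog that blocks DNA synthesis. All tumors came from the line FVB/N-Tg(MMTV-PyVT)634Mul/J, in which the MMTV promoter drives the polyoma middle T oncogene and mammary tumors arise without further intervention. The labels list the tissue as breast and the genotype as WT, and the ages of the mice were not given in the sources used here. The vehicle group received no drug, and the combination group received KCL-HO-1i at 25 µmol/kg daily and gemcitabine at 64 mg/kg every 7 days, both for 72 hours per the labels, while the study's text names less gemcitabine and an earlier end point. The libraries of gemcitabine alone and of KCL-HO-1i alone, 5 each at the same labelled doses and time, were used only to place the combination. The total count was between 10406989 and 13622395 reads per library, and 14629 to 15476 genes had at least 1 read.

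Heme oxygenases open the heme ring and release carbon monoxide, biliverdin and iron. HO-1, encoded by Hmox1, is the inducible form and is used by macrophages that clear red cells and recycle their iron, while HO-2, encoded by Hmox2, is the constitutive form. In tumors, HO-1 is found largely in macrophages, including perivascular macrophages that carry the hyaluronan receptor LYVE-1. An inhibitor of the enzyme acts on the protein, so the amount of Hmox1 mRNA does not measure whether the enzyme was blocked. Gemcitabine enters cells through nucleoside transporters, is phosphorylated by deoxycytidine kinase, and inhibits ribonucleotide reductase and DNA polymerases.

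Mammary epithelial markers were abundant in every library, with the summed CPM (read counts of a gene scaled to a common effective library size) of 18 luminal epithelial genes between 6892 and 7809.8 in vehicle and between 3629 and 7808 in the combination. A pair of libraries stood apart. Combination replicate 2 held 17598 summed CPM of skeletal muscle genes, against 10.5 to 68.9 in vehicle and at most 416 in the other combination libraries. It also held 16258 summed CPM of adipocyte genes, with 3011, 103, 191 and 1913 in replicates 1, 3, 4 and 5 and 123 to 711 in vehicle. Vehicle replicate 3 was low in macrophage genes, with 463 summed CPM where the other vehicle libraries had 1239 to 3065. Many counts below are therefore also given without combination replicate 2, without vehicle replicate 3 and with each library's adipocyte and muscle scores as covariates. In bulk tumor RNA, a change in the number of cells of a type and a change in RNA per cell cannot be told apart.

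**Figure D1:**
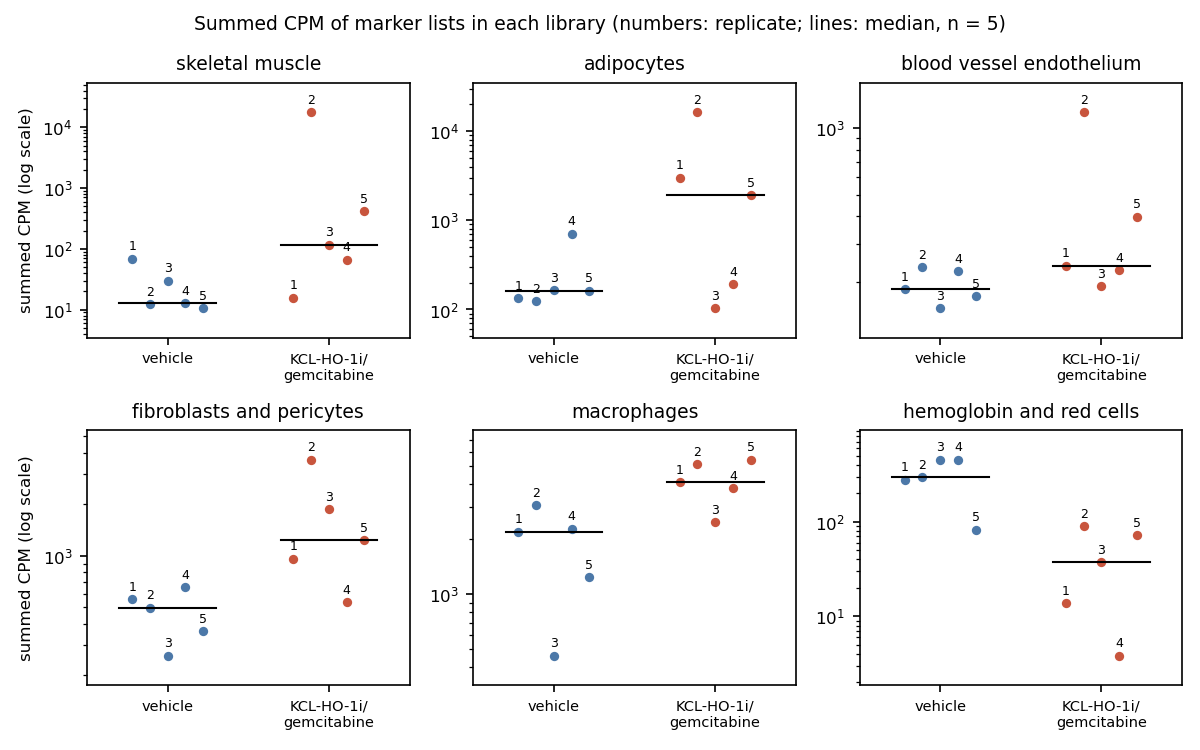
Summed CPM (log axis) of 6 marker gene lists in each of the 5 vehicle and 5 KCL-HO-1i/gemcitabine libraries, 1 point per library. Muscle and adipocyte genes peak in combination replicate 2, and all 5 combination libraries lie above 4 of the 5 vehicle libraries for macrophage genes.

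No gene passed an adjusted p of 0.05 in edgeR's quasi-likelihood test across the 13663 genes tested (0 genes, 0.0%). The smallest adjusted p was 0.0822, shared by 143 genes, and 2703 genes (19.8%) had an unadjusted p under 0.05, of which 1605 were higher and 1098 lower in the combination. DESeq2 called 883 genes at an adjusted p under 0.05 on the same counts, 649 higher (4.75% of those tested) and 234 lower (1.71%), and limma-voom with library quality weights called 1322, 668 higher (4.89%) and 654 lower (4.79%), with 527 genes in both sets. Under the limits used in the study, read as a log2 fold change beyond 0.6 in either direction and an unadjusted p under 0.05, 1392 genes were higher (10.2%) and 221 lower (1.62%). These are the limits meant below by "higher" and "lower past the limits", and they carry no correction for the number of genes. Without combination replicate 2, 672 genes were higher (4.88%), 624 of them among the 1392, and 214 were lower (1.55%), 149 of them among the 221. Without vehicle replicate 3, 1181 were higher (8.54%) and 191 lower (1.38%), and with the tissue scores 320 were higher (2.34%) and 151 lower (1.11%). With the mouse code of the labels in the fit, which leaves few libraries to compare within a code, 126 were higher and 44 lower. Without combination replicate 4, edgeR called 189 genes at an adjusted p under 0.05. The median log2 difference over all genes tested was 0.02, and 7173 genes lay above 0.

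**Figure D2:**
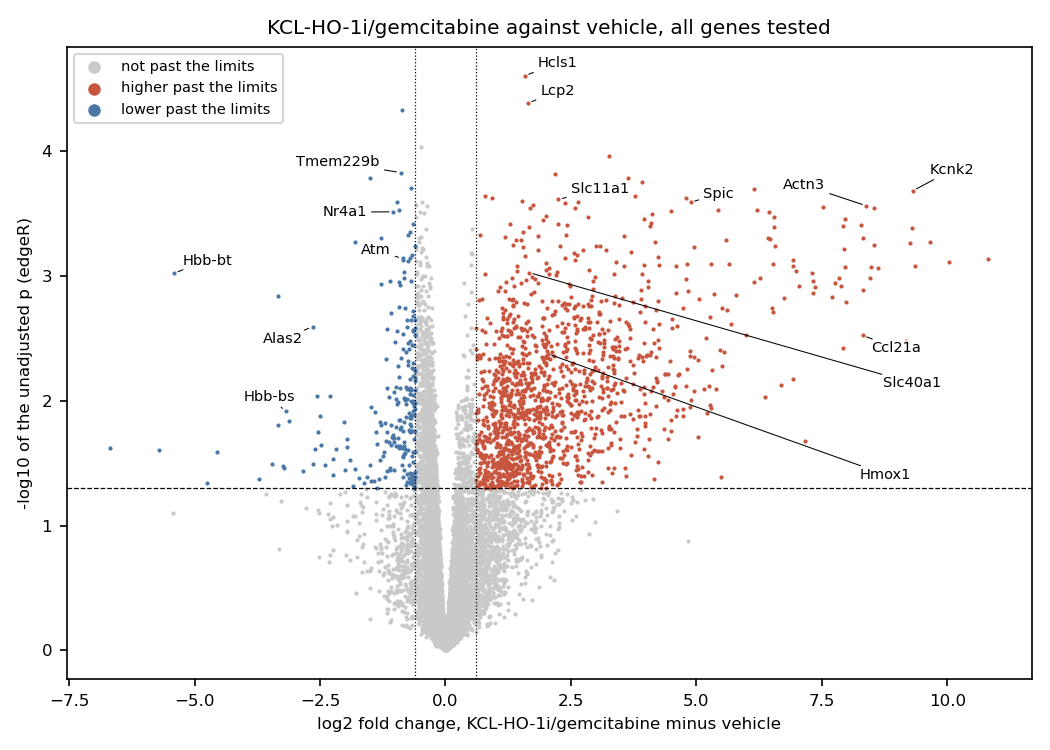
Each of the 13663 genes tested, with the log2 difference of KCL-HO-1i/gemcitabine minus vehicle on the x axis and −log10 of the unadjusted edgeR p on the y axis. More genes pass the limits on the higher side (1392) than on the lower side (221), and the largest differences are those of genes at low counts or of muscle and fat.

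Hmox1, at chr8:75093618-75100593 of GRCm38 in the RefSeq annotation, encodes the target of KCL-HO-1i. It was measured at 32.9, 51.3, 84.7, 59.9 and 18.4 CPM in vehicle replicates 1 to 5 and at 149, 209, 418, 115 and 120.0 CPM in combination replicates 1 to 5. Every combination library lay above every vehicle library, and combination replicate 3 was the highest of all. The difference was 2.03 on the log2 scale (SE 0.65, 4.09-fold, unadjusted p = 0.00419, edgeR adjusted p = 0.099), with adjusted p-values of 0.0214 by DESeq2 and 0.0138 by limma-voom. A two-sided exact permutation test over the 252 arrangements of the group labels gave p = 0.00794 for the difference in mean log2 CPM, the smallest value this design allows. The log2 difference was 2.01 without combination replicate 2, 2.28 without vehicle replicate 3 and 1.63 with the tissue scores, and it was 1.87 when the mouse code entered the fit, no longer past the limits (edgeR unadjusted p = 0.185). Hmox2 was between 55.1 and 89.5 CPM in all 10 libraries and differed by 0.14 (SE 0.11, edgeR unadjusted p = 0.218).

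Of 13 genes of heme breakdown and transport that were tested, 5 were higher past the limits (10.2% of all genes were) and 0 lower (1.62% of all genes were), with a median log2 difference of 0.17, and 4 were higher without combination replicate 2, 6 without vehicle replicate 3 and 3 with the tissue scores. Blvrb, biliverdin reductase B, was at 30.5, 25.5, 15.0, 28.7 and 20.1 CPM in vehicle and 39.1, 45.3, 33.7, 43.5 and 45.7 CPM in the combination, which do not overlap (log2 0.79, SE 0.21). Spic, a transcription factor of macrophages that recycle red cell iron, had 2 reads in all vehicle libraries together and 78 in the combination libraries, with 1.33, 0.704, 0.248, 2.26 and 1.79 CPM in replicates 1 to 5. Each combination library had reads of Spic, whereas 4 vehicle libraries had 0. Hp, the hemoglobin scavenger haptoglobin, was at 45.8, 19.5, 21.4, 95.2 and 22.1 CPM in vehicle and 274, 1322, 305, 34.4 and 265 CPM in the combination, where replicate 2 was highest and replicate 4 lay within the vehicle range. Lrp1, the receptor for hemopexin-bound heme among other ligands, was also higher (log2 1.62, SE 0.60).

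Genes that handle the released iron were measured next. Of 16 tested, 5 were higher and 1 lower past the limits (median log2 0.35), and 5 were higher without combination replicate 2, 5 without vehicle replicate 3 and 3 with the tissue scores, where the median was -0.11. Slc40a1 (chr1:45908070-45926532), the iron exporter ferroportin, was at 15.8, 14.2, 8.18, 16.03 and 11.8 CPM in vehicle and at 54.2, 35.0, 36.3, 43.1 and 40.5 CPM in the combination. The lowest combination library was above the highest vehicle library (log2 1.66, SE 0.45, edgeR unadjusted p = 0.000938). Slc11a1 (chr1:74375014-74386057), the NRAMP1 metal transporter of the phagosome of macrophages, was at 2.54, 6.76, 1.23, 5.68 and 1.79 CPM in vehicle and 15.5, 20.5, 13.1, 16.3 and 20.7 CPM in the combination (log2 2.25, SE 0.53). Fth1, the heavy chain of the iron store ferritin, was at 2389, 1714, 1880.5, 1204 and 1386 CPM in vehicle and 2791, 4480.0, 6527, 2521 and 3748 CPM in the combination, again without overlap (log2 1.23, SE 0.36). Ftl1, the ferritin light chain (log2 0.72, SE 0.24), and Steap4, a metalloreductase (log2 1.13, SE 0.38), were the other members higher past the limits. Tfrc, the transferrin receptor that brings iron into cells, was lower (log2 -0.85, SE 0.34), but no member of the list was lower past the limits without vehicle replicate 3. Ireb2, an iron-sensing RNA-binding protein, had all 5 combination libraries below all vehicle libraries but by only -0.27 (SE 0.08), short of the limit on size.

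**Figure D3:**
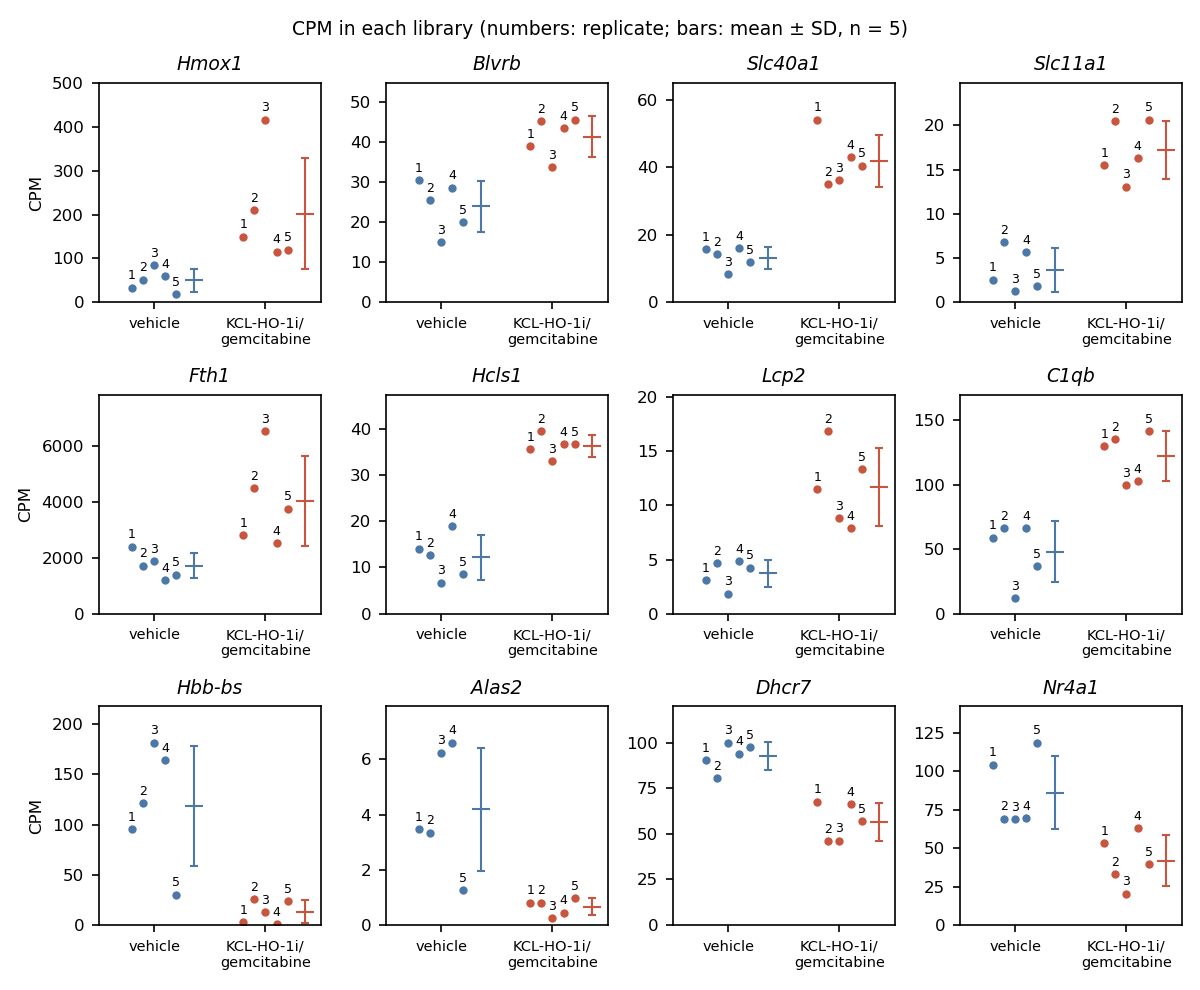
CPM of 12 genes in each of the 5 vehicle and 5 KCL-HO-1i/gemcitabine libraries (points), with the group mean and SD (bars). Hmox1, Blvrb, Slc40a1, Slc11a1, Fth1, Hcls1, Lcp2 and C1qb were higher in every combination library than in any vehicle library, and Hbb-bs, Alas2, Dhcr7 and Nr4a1 lower.

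Red cell genes went the other way. Of the 5 genes of this list that were tested, 4 were lower past the limits, with a median log2 difference of -3.19, against 1.62% of all genes. Hbb-bs (chr7:103826523-103827928), an adult beta globin, was at 95.1, 121, 182, 164 and 30.3 CPM in vehicle and 2.74, 25.4, 12.9, 0.904 and 23.6 CPM in the combination (log2 -3.19, SE 1.18, unadjusted p = 0.0121, edgeR adjusted p = 0.132). Alas2, the erythroid enzyme that starts heme synthesis, was at 3.48, 3.34, 6.24, 6.61 and 1.26 CPM in vehicle and 0.816, 0.805, 0.248, 0.452 and 0.984 CPM in the combination (log2 -2.65, SE 0.80). Both genes had every combination library below every vehicle library, and vehicle replicate 5 was the lowest of its group in both. Hbb-bt and Hba-a1 were lower as well (log2 -5.41 and -2.60), while the difference of -3.31 for Hba-a2 had a large error and was not past the limits (SE 2.25). The alpha and the beta globins are pairs of near-identical genes, so how their reads were divided within each pair is uncertain. All 5 were lower past the limits without combination replicate 2 and all 5 with the tissue scores, while DESeq2 and limma-voom called 3 and 3. The list's summed level ran from 82.4 to 453 CPM in vehicle and from 3.84 to 89.4 CPM in the combination, and how much blood each tumor held when it was taken was not recorded in the sources used here.

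Most genes of the leukocyte signaling list were higher. This list, like the others, was written with earlier results of these data known, so its counts are a description. Of 25 leukocyte signaling genes tested, 21 were higher past the limits and none lower, with a median log2 difference of 1.21 against 0.02 over all genes. In 16 of the 25, all 5 combination libraries were above all 5 vehicle libraries, where 2.2% of all genes were, and in none were they all below, where 1.84% were. The count was 17 without combination replicate 2, 18 without vehicle replicate 3 and 16 with the tissue scores, and DESeq2 and limma-voom called 15 and 21. Hcls1 (chr16:36934983-36963214), an actin regulator of blood cells that lies downstream of their antigen receptors, had the smallest p of any gene whose groups did not overlap, with 14.1, 12.6, 6.68, 18.9 and 8.48 CPM in vehicle and 35.7, 39.6, 33.1, 36.7 and 36.8 CPM in the combination (log2 1.58, SE 0.31, unadjusted p = 2.48e-05, edgeR adjusted p = 0.0822). The 5 combination libraries of Hcls1 lay close to each other, and the vehicle libraries were more spread. Lcp2 (chr11:34046928-34092281), the adaptor SLP-76, was at 3.10, 4.65, 1.85, 4.83 and 4.24 CPM in vehicle and 11.5, 16.9, 8.84, 7.91 and 13.3 CPM in the combination (log2 1.64, SE 0.34). Coro1a, an actin-binding protein of leukocytes, was at 23.0, 23.5, 7.92, 22.3 and 15.3 CPM in vehicle and 43.3, 55.0, 36.8, 34.5 and 44.0 CPM in the combination (log2 1.21, SE 0.33). Lilr4b, an inhibitory immunoglobulin-like receptor, had reads in 1 of 5 vehicle libraries and in all 5 combination libraries, and it belongs to a family of similar genes between which reads may be shared.

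Most macrophage genes were higher. Of 23 tested, 19 were higher past the limits and 0 lower, with a median log2 difference of 1.23 and 11 members whose groups did not overlap. The count was 18 without combination replicate 2, 16 without vehicle replicate 3 and 12 with the tissue scores. The 3 genes of complement C1q, Csf1r and Adgre1, the F4/80 antigen, were among the members higher past the limits. C1qb was at 58.9, 66.5, 11.9, 66.3 and 36.7 CPM in vehicle and 130.0, 136, 99.6, 103 and 142 CPM in the combination (log2 1.34, SE 0.39). Fcgr3, an activating Fc receptor, was at 7.42, 12.2, 3.17, 9.75 and 4.61 CPM in vehicle and 25.5, 29.4, 14.8, 13.1 and 30.1 CPM in the combination (log2 1.60, SE 0.44). Tyrobp, the signaling adaptor DAP12, was at 23.5, 31.8, 3.52, 23.2 and 11.6 CPM in vehicle and 53.5, 53.4, 34.5, 44.6 and 63.0 CPM in the combination (log2 1.41, SE 0.42). In each of these genes vehicle replicate 3 was the lowest library of all. Without it the log2 differences were 1.06 for C1qb, 1.38 for Fcgr3 and 1.12 for Tyrobp. Aif1, the calcium-binding protein IBA1, was at 8.74, 9.59, 1.32, 8.73 and 5.73 CPM in vehicle and 16.5, 13.98, 17.4, 20.3 and 18.9 CPM in the combination (log2 1.35, SE 0.39).

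Markers of perivascular and resident macrophages leaned on single libraries. Of 16 tested, 14 were higher past the limits (median log2 2.24), but 5 without combination replicate 2, 9 without vehicle replicate 3 and 1 with the tissue scores. Lyve1 was at 1.79, 0.0727, 0.352, 4.24 and 0.818 CPM in vehicle and 5.04, 18.1, 0.248, 0.0754 and 5.64 CPM in the combination, a range of values in which the groups overlapped (log2 2.00, SE 1.23, edgeR unadjusted p = 0.117). Mrc1, the mannose receptor CD206, was at 8.64, 5.81, 3.61, 15.7 and 4.76 CPM in vehicle and 27.7, 111, 7.27, 9.27 and 38.6 CPM in the combination. Its log2 difference of 2.33 (SE 0.89) was past the limits, while that of 1.40 without combination replicate 2 was not. Maf, a macrophage transcription factor, was the member of the 4 with the smallest p whose groups did not overlap, with 10.3, 5.74, 3.43, 10.01 and 7.74 CPM in vehicle and 22.5, 102, 30.9, 11.3 and 25.2 CPM in the combination (log2 2.36, 1.57 without combination replicate 2). Pf4, Igf1 and Clec10a, a platelet factor that macrophages also make, a growth factor and a lectin, had log2 differences of 2.90, 3.65 and 2.78, and 1.96, 2.20 and 1.98 without that library.

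Several T cell transcripts had few reads. Ifng, the cytokine interferon gamma, had 0 reads in all 10 libraries, and the floor of 3 reads corresponded to 0.218 to 0.302 CPM per library. Cd8b1 had 5 reads over the vehicle libraries and 11 over the combination libraries and was not tested. Cd8a, the alpha chain of the CD8 co-receptor, was at 0.564, 0.363, 0.616, 1.53 and 0.967 CPM in vehicle and 0.816, 0.503, 0.496, 3.17 and 0.895 CPM in the combination, where replicate 4 alone exceeded the vehicle range (log2 0.54, SE 0.64, edgeR unadjusted p = 0.403). Gzmb, the cytotoxic protease granzyme B, differed by 0.46 (SE 0.55, edgeR unadjusted p = 0.406). Neither Cd8a nor Gzmb was past the limits. Of 15 T and cytotoxic cell genes tested, 5 were higher past the limits (10.2% of all genes were). The count was 2 without combination replicate 2 (4.88% of all genes), 3 without vehicle replicate 3 (8.54%) and 2 with the tissue scores (2.34%). The 5 were Cd247, the zeta chain of the T cell receptor, the natural killer receptors Klrd1 and Ncr1, the interleukin receptor subunit Il2rb, and the chemokine Ccl5. Klrd1, which had the smallest p of these, was at 0.188, 0, 0, 0.17 and 0 CPM in vehicle and 0.371, 1.01, 0.165, 0.98 and 0.447 CPM in the combination, which is a handful of reads per library (log2 2.95, SE 1.01).

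Further immune lists were antigen presentation, checkpoints, neutrophils, B cells and interferon responses. Of all genes, 10.2% were higher and 1.62% lower past the limits. The share higher was 4.88% without combination replicate 2, 8.54% without vehicle replicate 3 and 2.34% with the tissue scores. Antigen presentation by MHC class II and dendritic cells had 5 of 15 genes higher past the limits (median log2 0.93), 3 without combination replicate 2, 2 without vehicle replicate 3 and 2 with the tissue scores. The peptide-loading factor H2-DMa was at 8.27, 6.61, 2.55, 8.48 and 4.54 CPM in vehicle and 13.2, 15.0, 7.35, 13.1 and 16.02 CPM in the combination, where only replicate 3 lay within the vehicle range (log2 1.09, SE 0.30). The co-stimulatory ligand Cd86 was higher too (log2 1.08, SE 0.35), and it was 1 of 2 checkpoint genes of 10 past the limits, with Vsir (log2 0.61, SE 0.25). None of 12 MHC class I genes was past the limits (median log2 0.18), and none of 2 tested B cell genes was. Among 8 neutrophil genes 1 was higher, near the share of all genes. This was the receptor Csf3r (log2 1.19, SE 0.52), at 0.90 and not past the limits without vehicle replicate 3. Of 24 interferon-stimulated genes, 0 were higher and 2 lower past the limits, with a median log2 difference of -0.77, and 1 was lower without combination replicate 2, 0 without vehicle replicate 3 and 0 with the tissue scores. The antiviral gene Rsad2 was at 9.49, 9.01, 42.9, 20.5 and 6.17 CPM in vehicle and 6.01, 3.32, 7.35, 2.49 and 3.49 CPM in the combination (log2 -1.95, SE 0.81), and without vehicle replicate 3, its highest library, the value was -1.35 and not past the limits.

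Most chemokines and their receptors lay above 0, but the count past the limits varied between fits. Of 35 tested, 33 lay above 0, and 15 were higher and 1 lower past the limits (median log2 1.16). The count higher was 7 without combination replicate 2, 11 without vehicle replicate 3 and 3 with the tissue scores. Cx3cr1, the fractalkine receptor of monocytes and macrophages, was at 24.0, 36.8, 6.07, 37.7 and 19.8 CPM in vehicle and 50.3, 43.0, 56.9, 75.1 and 66.4 CPM in the combination, without overlap (log2 1.23, SE 0.38, 1.31 without combination replicate 2). Cxcl14, a chemokine of epithelium and stroma, was at 21.3, 15.8, 2.20, 10.01 and 7.14 CPM in vehicle and 30.4, 87.0, 45.3, 11.004 and 40.1 CPM in the combination, where replicate 4 lay within the vehicle range (log2 1.92, SE 0.59). Cxcl12, which retains and attracts leukocytes through CXCR4, differed by 1.53 (SE 0.68), and by 0.65 without combination replicate 2, no longer past the limits. Ccl21a, the lymphoid chemokine that draws cells carrying CCR7, had 0 reads in all vehicle libraries and 189 in the combination, found only in replicates 1 (3.41 CPM) and 5 (12.8 CPM). Over the groups this was at least 64.1-fold higher against a floor of 3 reads in the vehicle group, and at least 19.2-fold without replicate 5, and the gene has near-identical copies between which its reads may be divided. Cxcl5, a neutrophil attractant, rested on combination replicate 3, with 0.222, 0.603, 10.8, 0 and 0.0895 CPM in replicates 1 to 5 and at most 0.188 CPM in vehicle.

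**Figure D4:**
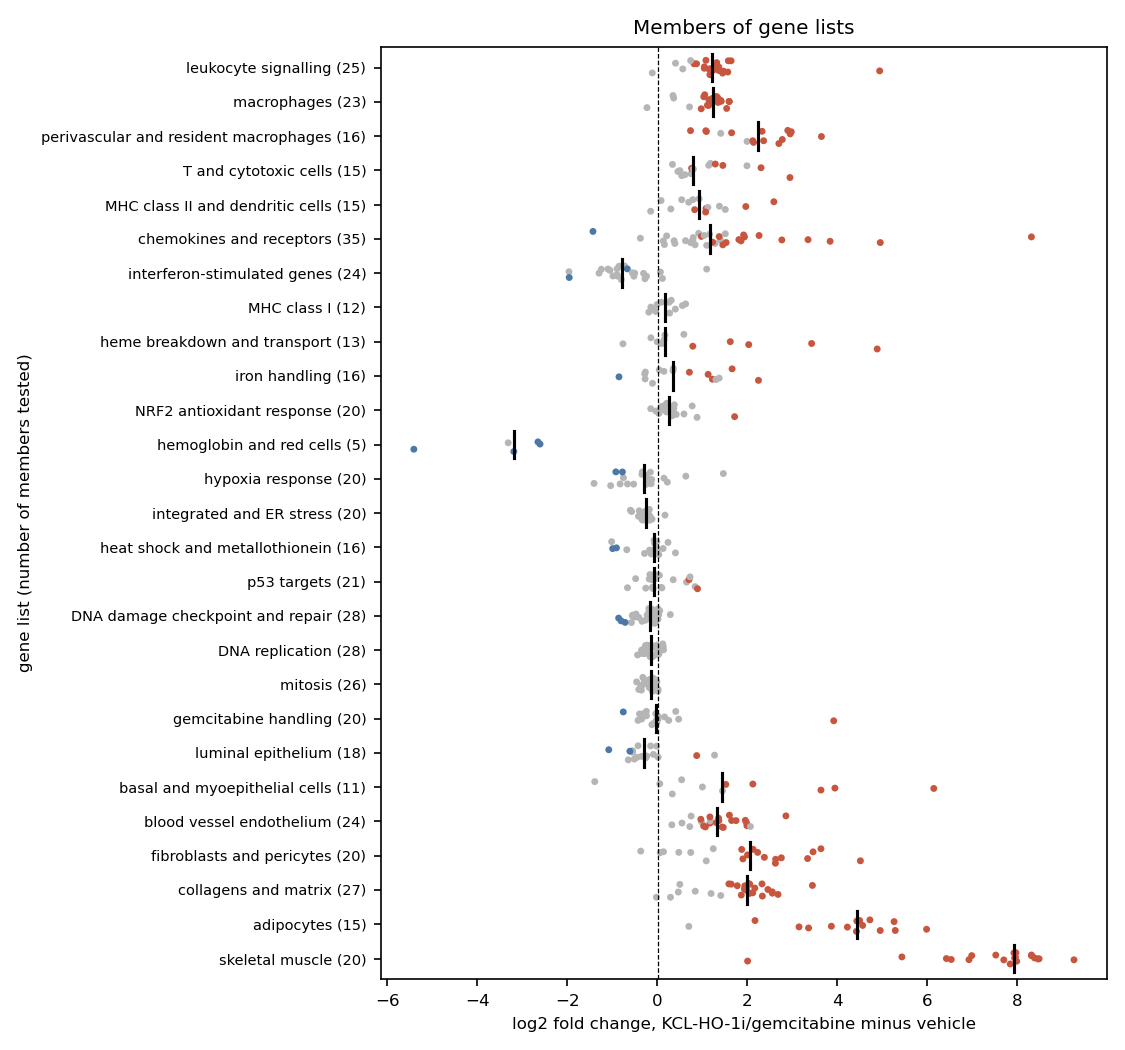
Log2 difference (KCL-HO-1i/gemcitabine minus vehicle) of each tested member of the gene lists, 1 point per gene, with a bar at the list's median and a dashed line at the median of all genes tested (0.02). Leukocyte and macrophage genes sit mostly above the line with medians of 1.21 and 1.23, and red cell genes below it. The lists of fat and muscle have the highest medians.

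Stromal and vascular lists were also high in the counts, and most of those counts moved with combination replicate 2. The share of all genes higher was 10.2%. It was 8.54% without vehicle replicate 3, 2.34% with the tissue scores and 4.88% without combination replicate 2. Of 24 endothelial genes, 17 were higher past the limits (median log2 1.34), 1 without that library, 8 without vehicle replicate 3 and 0 with the tissue scores. Cldn5, a tight junction protein of endothelium, was at 3.38, 2.18, 1.14, 1.36 and 1.56 CPM in vehicle and 7.64, 42.8, 3.97, 4.30 and 11.5 CPM in the combination (log2 2.86, SE 0.76), and was past the limits also without replicate 2 (log2 1.81). Of 27 collagen and matrix genes, 20 were higher (median log2 2.00), 4 without that library, and of 20 fibroblast and pericyte genes 13 were higher, 7 without it and 2 with the tissue scores. The matrix glycoprotein Sparc was at 261, 202, 72.3, 209.7 and 113 CPM in vehicle and 414, 1926, 660.4, 184 and 553 CPM in the combination (log2 2.12, 1.38 without replicate 2). Of 23 matrix proteases and inhibitors 14 were higher, 9 without that library and 4 with the tissue scores. Among them Mmp11, stromelysin-3, was at 4.79, 4.58, 1.76, 4.32 and 1.86 CPM in vehicle and 8.82, 18.1, 5.21, 5.13 and 16.02 CPM in the combination, without overlap (log2 1.62, SE 0.46). Of 20 angiogenic ligands 4 were higher and 1 lower, and none was higher without combination replicate 2. Of 6 lymphatic endothelial genes 3 were higher, 3 without that library, and Lyve1 and Ccl21a are shared with lists above.

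All 20 skeletal muscle genes tested were higher past the limits (median log2 7.93), as were 14 of 15 adipocyte genes (median log2 4.44) and 3 of 8 brown adipocyte genes. Actn3, a muscle actinin, was at 1.22, 0.291, 0.0879, 0 and 0.149 CPM in vehicle and 0.0741, 555, 4.30, 1.81 and 14.3 CPM in the combination, and 194, 1281, 21.2, 41.1 and 187 CPM of Lpl, lipoprotein lipase, in combination replicates 1 to 5 stood against 11.2, 10.5, 37.2, 42.1 and 16.9 CPM in vehicle. Without combination replicate 2 the counts were 10 of muscle, 2 of adipocyte and 2 of brown adipocyte genes. With the scores of fat and muscle as covariates, which are made from these genes, the counts were 0, 0 and 0. Ucp1, the uncoupling protein of brown fat, rested on combination replicate 1 (53.2, 0.201, 0, 0.0754 and 0.268 CPM in replicates 1 to 5). The part of neighboring fat and muscle in the stromal and vascular counts was not tested beyond these fits.

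**Figure D5:**
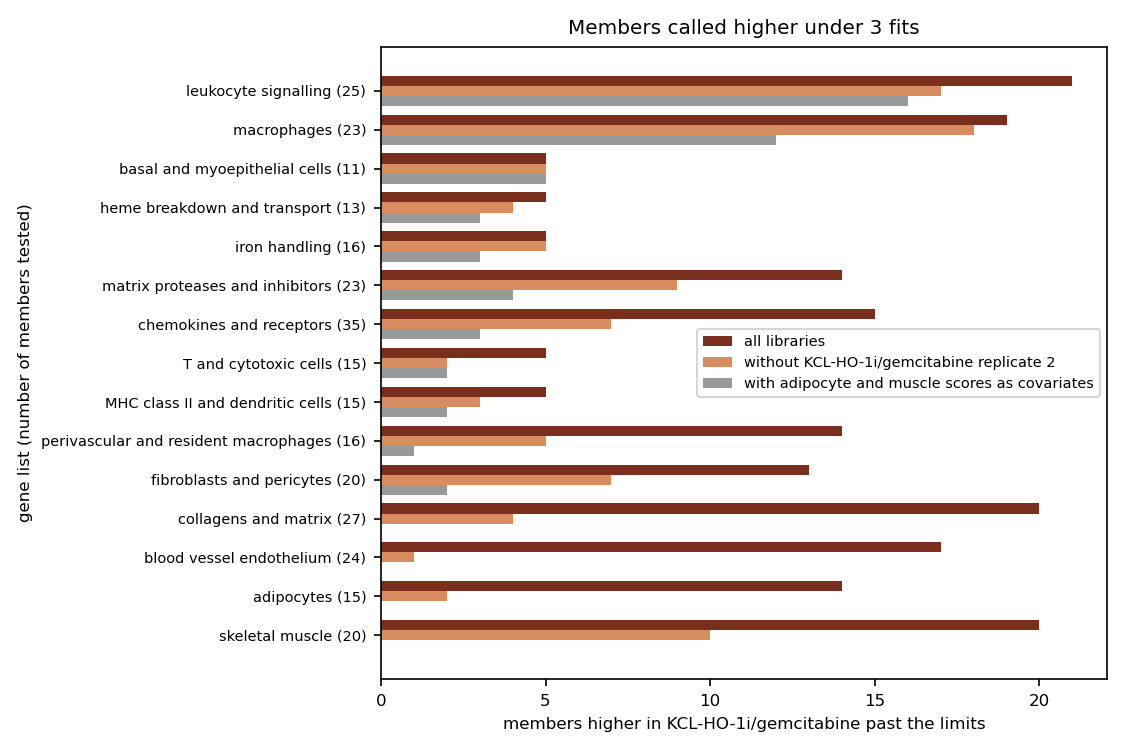
Number of members of each gene list higher past the limits under 3 fits: all libraries, without combination replicate 2, and with adipocyte and muscle scores as covariates. Leukocyte signaling (21, 17 and 16) and macrophage genes (19, 18 and 12) kept most of their count, while endothelial genes (17, 1 and 0) and collagens (20, 4 and 0) did not. The share of all genes higher past the limits also fell over these fits, from 10.2% to 4.88% and 2.34%.

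Luminal epithelial genes had a median log2 difference of -0.30, and 3 of 18 lay above 0. Past the limits, 1 was higher, the estrogen receptor Esr1, where 10.2% of all genes were. The 2 lower were the claudin Cldn4 and the growth factor receptor Erbb3, a larger share than the 1.62% of all genes. None of Esr1, Cldn4 and Erbb3 was past the limits without vehicle replicate 3 or with the tissue scores. The sign of Esr1 turned with the mouse code in the fit (−0.083). Cdh1, E-cadherin, had all combination libraries below all vehicle libraries, at 389, 264, 302, 381 and 351 CPM against 448, 393, 635, 519.6 and 465 CPM, with a log2 difference of -0.54 (SE 0.16) that was short of the limit on size. Of 11 basal and myoepithelial genes, 5 were higher past the limits (10.2% of all genes were), 5 without combination replicate 2 and 5 with the tissue scores. They were all of the contractile apparatus or its hormone receptor (Acta2, Cnn1, Myh11, Mylk and Oxtr), and combination replicate 3 was the highest library in all 5 of them. Acta2, smooth muscle actin, was at 16.5, 14.2, 9.06, 13.99 and 12.6 CPM in vehicle and 29.0, 107, 658, 8.37 and 26.1 CPM in the combination (log2 3.64, SE 0.83). Without combination replicate 3 the log2 differences were 1.65 for Acta2, 3.25 for Cnn1, 3.00 for Myh11 and 1.07 for Mylk, all past the limits. At an adjusted p under 0.05, DESeq2 called 5 of the 11 genes higher, whereas limma-voom, which weights libraries by quality, called 0. Of 6 epidermal genes, only Krt71 of the hair follicle was higher (log2 3.35), and of 10 milk protein genes 3 were, 1 without combination replicate 2, 5 without vehicle replicate 3 and 0 with the tissue scores. Csn1s2a, an alpha casein, was at 27.1, 14.8, 172, 9.07 and 16.8 CPM in vehicle and 69.3, 2757, 2.64, 5.58 and 3500.1 CPM in the combination, where replicates 2 and 5 were high and replicates 3 and 4 lay below every vehicle library.

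Few genes tied to the action of gemcitabine were past the limits. Of 20 genes of its transport and metabolism tested, 1 was higher and 1 lower past the limits, with a median log2 difference of -0.02, and 0 and 0 were with the tissue scores. Rrm1, the large subunit of ribonucleotide reductase, was at 117, 147, 144, 121 and 177 CPM in vehicle and 124, 109, 102, 90.7 and 100.5 CPM in the combination (log2 -0.43, SE 0.24, edgeR unadjusted p = 0.0836). Its partner Rrm2 differed by -0.24 (SE 0.43), the activating kinase Dck by -0.32 (SE 0.15) and the equilibrative transporter Slc29a1 by -0.24 (SE 0.26), none past the limits. The concentrative nucleoside transporters were the members past the limits. Slc28a3 was at 274, 171, 228, 229 and 251 CPM in vehicle and 161, 150.4, 75.8, 119 and 178 CPM in the combination, with replicate 5 inside the vehicle range (log2 -0.75, SE 0.32). Slc28a2 was at 0 to 0.282 CPM in vehicle and 2.00, 8.35, 0.248, 0.151 and 1.43 CPM in the combination, where replicates 3 and 4 lay within the vehicle range (log2 3.92, 2.57 without combination replicate 2, and 0.52 and not past the limits with the tissue scores).

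Calls differed among the cell cycle and DNA damage lists. None of 28 DNA replication genes (median log2 -0.14) and none of 26 mitosis genes (median log2 -0.13) was past the limits, against 10.2% and 1.62% of all genes in the respective directions. Mki67, the proliferation antigen, was at 146, 150.3, 251, 142 and 200.1 CPM in vehicle and 177, 197, 99.2, 84.5 and 113 CPM in the combination, with both of the highest combination libraries inside the vehicle range (log2 -0.41, SE 0.41). Cdkn1a, the p53 target that arrests the cycle, was at 69.9, 85.2, 120.0, 94.7 and 148 CPM in vehicle and 52.8, 54.1, 255, 121 and 73.38 CPM in the combination (log2 0.10, SE 0.44), and the sign of its difference changed when combination replicate 3 or vehicle replicate 1 was left out. Of 21 p53 targets 2 were higher, near the share of all genes (10.2%). They were the death receptor Fas (log2 0.90, SE 0.32, −0.014 with the mouse code in the fit) and the sestrin Sesn1 (log2 0.71, SE 0.28), of which Sesn1 was not past the limits without vehicle replicate 3 (0.55). Among 28 checkpoint and repair genes 0 were higher and 3 lower, a larger share than the 1.62% of all genes. The count lower was 3 without combination replicate 2, 2 without vehicle replicate 3 and 1 with the tissue scores. Atm, the kinase that senses double-strand breaks, was at 24.9, 33.9, 63.9, 29.8 and 37.2 CPM in vehicle and 18.0, 21.5, 21.4, 22.4 and 21.5 CPM in the combination (log2 -0.86, SE 0.22, edgeR unadjusted p = 0.000724). Chek1, the checkpoint kinase of stalled replication, was at 9.21, 10.1, 17.1, 9.07 and 8.70 CPM in vehicle and 7.04, 5.93, 8.26, 4.30 and 5.55 CPM in the combination (log2 -0.80, SE 0.29). Neither overlapped between groups, vehicle replicate 3 was the highest library in both, and without it the log2 differences were -0.62 and -0.61, both past the limits. Fanca, of the crosslink repair complex, was lower with that library (log2 -0.71) and not past the limits without it (-0.53).

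The stress lists had 0 to 2 genes past the limits each, where 10.2% of all genes were higher and 1.62% lower. The 2 lower genes of the heat shock list and the 2 of the hypoxia list were larger shares than that of all genes. None of 20 genes of the integrated and endoplasmic reticulum stress responses was past the limits, although the median log2 difference was -0.25 and 1 member lay above 0. The chaperone Hspa5 was at 1408, 1575, 1353, 1288 and 1409 CPM in vehicle and 1129, 1078, 1001, 917 and 1208 CPM in the combination, without overlap (log2 -0.40, SE 0.19). Of 16 heat shock and metallothionein genes, the near-identical pair Hspa1a and Hspa1b was lower (log2 -0.99 and -0.91), and 1 of them with the tissue scores. Of 20 hypoxia genes, with a median log2 difference of -0.29 that was 0.05 without vehicle replicate 3, 2 were lower, the glucose transporter Slc2a1 (log2 -0.77) and the mTOR regulator Ddit4 (log2 -0.92), and neither was past the limits without vehicle replicate 3. Of 20 genes of the NRF2 antioxidant response, 18 lay above 0 with a median log2 difference of 0.26, but Gstm1 alone was higher past the limits. Gstm1, a glutathione transferase, was at 30.9, 24.1, 3.96, 21.4 and 23.1 CPM in vehicle and 64.2, 135, 41.2, 51.3 and 50.1 CPM in the combination (log2 1.72, SE 0.47). None of 9 genes of the SMN and gemin complex, 13 mitochondrially encoded genes or 81 cytosolic ribosomal protein genes was past the limits, with medians of 0.01, 0.45 and 0.18. Of 28 ribosome biogenesis genes Heatr1 was lower (log2 -0.64, not past the limits without vehicle replicate 3 or with the tissue scores, and 0.065 with the mouse code in the fit), and of 79 oxidative phosphorylation genes Cox8b, an isoform of brown fat and muscle, was higher (log2 3.02), and none was without combination replicate 2 or with the tissue scores.

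Some of the genes with the smallest p-values belonged to no list. Among the 12 genes higher with the smallest p whose groups did not overlap were the hematopoietic transcription factor Lyl1 (1.32, 2.03, 0.176, 1.36 and 0.669 CPM in vehicle, 6.45, 8.85, 3.55, 2.64 and 3.94 CPM in the combination), the membrane-shaping protein of leukocytes Bin2 (3.19, 7.63, 1.67, 6.87 and 3.20 and 12.6, 9.35, 17.4, 13.8 and 11.99 CPM) and the exporter of organic anions Abcc3 (7.52, 9.16, 1.76, 7.12 and 5.13 and 17.5, 16.8, 25.5, 22.8 and 20.4 CPM). Their log2 differences were 2.18, 1.52 and 1.74, and all 3 were past the limits without combination replicate 2. The arrestin Arrb2, the integrin Itga9 and the exchange factor Rasgrp4 had log2 differences of 0.79, 0.92 and 2.38. Asb2, an adaptor of a ubiquitin ligase, was at 1.03, 1.38, 0.44, 1.27 and 0.893 CPM in vehicle and 1.71, 33.2, 8.43, 3.17 and 2.15 CPM in the combination (log2 3.26, 1.92 without replicate 2). Kcnk2, a potassium channel, had 0 reads in every vehicle library and 3.63, 22.3, 2.56, 0.226 and 3.67 CPM in the combination, which was at least 117-fold higher over the groups against a floor of 3 reads in the vehicle group, and at least 50.4-fold without replicate 2.

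Of the 12 lower genes chosen in the same way, 11 are described here, with smaller differences, between -1.04 and -0.38 on the log2 scale. Nr4a1, an immediate early nuclear receptor, was at 104, 69.1, 68.9, 69.3 and 119 CPM in vehicle and 53.2, 32.9, 20.4, 62.8 and 39.4 CPM in the combination (log2 -1.04, SE 0.25, unadjusted p = 0.000306, edgeR adjusted p = 0.0822). Tmem229b, a membrane protein, was at 102, 58.7, 75.5, 81.2 and 73.6 CPM in vehicle and 34.3, 32.9, 47.0, 46.7 and 49.0 CPM in the combination (log2 -0.90, SE 0.20). Atp13a1, which removes mislocalized proteins from the endoplasmic reticulum membrane, and Dsg2, a desmosomal cadherin, had log2 differences of -0.69 and -0.74 and were past the limits. Dhcr7, which makes cholesterol from 7-dehydrocholesterol, was also past them, at 90.5, 80.4, 100.2, 94.1 and 97.7 CPM in vehicle and 67.7, 46.0, 46.3, 66.2 and 57.1 CPM in the combination (log2 -0.71, SE 0.18). The other 6 were not past the limit on size. They were Wapl, which releases cohesin from chromosomes, Camsap1, which binds microtubule minus ends, Tmtc3, Exoc8 of the exocyst, Rictor of mTOR complex 2 and Lemd3 of the inner nuclear membrane, with log2 differences from -0.59 for Rictor to -0.38 for Lemd3.

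The single agents place the combination, with the caveat that contrasts share libraries and that 4 of the 5 libraries of gemcitabine alone carry the same mouse code. Against gemcitabine alone, the combination had 726 genes higher (5.31%) and 149 lower (1.09%) past the limits, and against KCL-HO-1i alone 107 higher (0.783%) and 70 lower (0.512%). No gene passed an adjusted p of 0.05 in edgeR in either contrast (0 genes, with 1838, or 13.5%, and 364, or 2.66%, at an unadjusted p under 0.05), and DESeq2 called 45 and 0. The interaction, which asks whether the combination differed from the sum of the log2 differences of the single agents, had 57 genes higher (0.417%) and 63 lower (0.461%) past the limits, with 183 genes (1.34%) at an unadjusted p under 0.05 and 0 at an adjusted p under 0.05 in edgeR. Against vehicle, KCL-HO-1i alone had 901 genes higher (6.59%) and 45 lower (0.329%), with 9.43% at an unadjusted p under 0.05, and gemcitabine alone 97 higher (0.71%) and 69 lower (0.505%), with 3.83%.

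Hmox1 was at 19.3 to 60.3 CPM with gemcitabine alone (median 29.8) and at 47.8 to 299 CPM with KCL-HO-1i alone (median 106). The combination was higher than gemcitabine by 2.44 (SE 0.66, edgeR unadjusted p = 0.000993), and its difference from KCL-HO-1i was 0.40 (SE 0.62, edgeR unadjusted p = 0.522). For Hmox1 the interaction was 0.81 (SE 0.89, edgeR unadjusted p = 0.368), and neither value shows that the treatments acted alike. Of the 23 macrophage genes, 17 were higher in the combination than with gemcitabine (median log2 0.99) and 0 higher than with KCL-HO-1i (median log2 0.39). For the 25 leukocyte signaling genes the counts were 11 and 0. Of all genes, 5.31% were higher than with gemcitabine and 0.783% higher than with KCL-HO-1i. A count of 0 against KCL-HO-1i therefore does not set lists of this size apart from all genes.

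Red cell and proliferation genes had other patterns. Summed red cell genes were at 4.41 to 702 CPM with gemcitabine alone (median 7.05) and at 197 to 671 CPM with KCL-HO-1i alone (median 309). The combination was lower than KCL-HO-1i in 4 of the 5 genes and lower than gemcitabine in 1 (0.512% and 1.09% of all genes were). Hbb-bs differed by -3.60 from KCL-HO-1i (SE 1.203) and by -2.05 from gemcitabine (SE 1.14). The DNA replication list had 5 of 28 genes lower than with gemcitabine alone (median log2 -0.54), the checkpoint and repair list 5 of 28, and the mitosis list 1 of 26. Of all genes, 1.09% were lower in that contrast. Summed replication genes were at 1049 to 2249 CPM with gemcitabine alone (median 1357) and 887 to 1305 CPM in the combination (median 1068). Summed mitosis genes were at 987 to 3159.7 CPM (median 1509) and 840.2 to 1597 CPM (median 1092), so that the groups overlapped. Chek1 was lower than with gemcitabine by a log2 difference of -1.01 (SE 0.29, edgeR unadjusted p = 0.00162).

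The labels attach a mouse code to each library, and the meaning of the code was not stated. In both groups 1 code appears, for vehicle replicate 1 and combination replicate 5. Between those libraries, 1302 of the 1392 genes higher past the limits were above and 179 of the 221 lower genes below, where 6863 of all 13663 genes were above. These libraries are also part of the groups that chose those genes, so the counts are a description. Hmox1 was at 32.9 CPM in the vehicle library of that code and at 120.0 CPM in its combination library. Vehicle replicates 2 and 3 also share a code. Libraries of 1 code have different full names, and the study's figure legend gives 5 mice and tumors per group. What libraries of 1 code have in common was not stated, so the p-values measure only the spread between these samples.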

How the data were processed

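Total RNA of 30 tumors in 6 groups of 5 was sequenced after library preparation with a directional kit per the labels. Per the labels and the study's methods, the authors checked reads with FastQC 0.11.9, aligned them with STAR 2.7.9a, quantified transcripts with Salmon 1.9.0 and summed them to genes with tximport, and the submitters' notes name mm10 and DESeq2. The deposited values are expected counts (estimated reads per gene) of 21841 genes without normalization, although the methods speak of TPM. Library totals differ and 38.0% of values are not whole, so they were rounded to whole numbers. Reads split between similar genes are therefore estimates. Gene positions are those of RefSeq on GRCm38.p6.

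Counts were tested with edgeR 4.0.16 in R 4.3.3 (filterByExpr with a minimum count of 10, TMM, robust quasi-likelihood fit of 6 group means over all 30 libraries), with two-sided p-values and Benjamini-Hochberg adjustment at 0.05. The filter left out 8178 genes that held 0.0564% of counts, 3284 of them without a read. The common biological coefficient of variation was 0.401. Depth was 10406989 to 13622395 reads per library, and floors of 3 reads cover counting error only. List scores used log2 CPM with a prior count of 2. Alternatives were RLE normalization, DESeq2 1.42.0, limma 3.58.1 (voom with quality weights), genes with a mean of 50 counts or more, all genes unfiltered, only the groups compared, a block for the replicate number, a term for the mouse code (13 codes), and each of the 10 libraries left out in turn. Fits with adipocyte and muscle scores and list counts without single libraries were added after the data were seen. Same-numbered libraries of the 2 groups had residual correlations of −0.181 to 0.0213 and were not treated as pairs. No libraries were duplicates (lowest chi-square per degree of freedom 20.1 over 20 pairs within groups). The pipeline was tested on simulated data.

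Members were described by 42 gene lists, of which 5 listed symbols were not in the table. The libraries and gene lists were chosen with earlier results of these data known, and so support nothing on their own. Genes named were Hmox1, Hmox2, Rrm1, Rrm2, Dck, Slc29a1, Cdkn1a, Mki67, Cd8a, Cd8b1, Gzmb, Ifng, Mrc1, Lyve1, Cxcl14, Cxcl12 and Ccl21a whatever their values, the 12 higher and 12 lower with the smallest p whose groups did not overlap, and up to 4 per list with the smallest p. Other members named among those past the limits, such as Ftl1, Steap4, Tfrc, Lrp1, Csf1r, Adgre1 and Hba-a2, were chosen after their values were seen. Some genes and 1 list are not reported here.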

Additional observations from a re-analysis of the deposited data

Results flagged for a closer look

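Among 190 named genes, 380 groups of 5 libraries were checked for a library far from the other 4. The measure was the gap from that library to its nearest neighbor over the range of the group, in log2 CPM (critical value 0.71 for 5 libraries). Chance flags about 1 in 20 groups, and 28 were flagged here, 9 of them by vehicle replicate 3 and 5 by combination replicate 2. No named gene was flagged by the interaction of the treatments after adjustment.

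Vehicle replicate 3 was highest in Atp13a1 (ratio 0.807), Rictor (0.718), Chek1 (0.781), Cldn4 (0.859) and Mmrn1 (1.00), and lowest in Gstm1 (0.818), Nqo1 (0.727), Sesn1 (0.791) and Aif1 (0.732). Combination replicate 2 was lowest in Slc2a1 (0.843) and highest in Sox17 (0.794), Angptl2 (0.847), Vegfb (0.764) and Eno3 (0.752).

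Among the other vehicle libraries, replicate 4 was highest in Spic (1.00), replicate 2 in Lilr4b (1.00), replicate 1 in Jchain (0.752) and Eno3 (0.718), and replicate 5 highest in Elovl3 (1.00) and lowest in Hbb-bt (0.720) and Hba-a1 (0.730). Among the other combination libraries, replicate 1 was lowest in Atm (0.792) and highest in Ucp1 (0.832) and Elovl3 (0.723), replicate 3 was lowest in Asns (0.834) and H2-DMa (0.742) and highest in Cd276 (0.717), and replicate 5 was highest in Dsg1a (0.860).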

How the results depend on the processing

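The 0 genes at an adjusted p under 0.05 in the combination against vehicle became 883 with DESeq2 and 1322 with limma-voom, and 45 with DESeq2 against gemcitabine alone. Leaving out 1 library gave between 0 and 189 genes, the 189 without combination replicate 4. Genes higher past the limits, 1392, became 821 with a mean of at least 50 counts, 320 with adipocyte and muscle scores as covariates and 126 with the mouse code, and lay between 672 (without combination replicate 2) and 1560 when 1 library was left out. Genes lower past the limits, 221, became 343 with limma-voom and 44 with the mouse code, and lay between 191 and 329 when 1 library was left out. With the mouse code Hmox1 was at 1.87 and not past the threshold, and it lay between 1.56 and 2.28 without single libraries. The cause of these changes was not tested.

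With the replicate number as a block, 0 genes passed an adjusted p under 0.05, 1152 were higher and 201 lower past the limits, and Hmox1 was at 1.97. The same-numbered libraries did not deviate together. Under the block 10 named genes were no longer past the limits and 1 newly was. Of 189 named genes other than Hmox1, 178 stayed on their side of the limits under the block, 181 under DESeq2, 189 under RLE normalization and 81 with the mouse code.

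Signs turned with the mouse code for Hmox2 (−0.22), Gzmb (−0.27), Rrm2 (0.19), Dck (0.11), Gsta4 (−0.35), Nqo1 (−0.21), Fas (−0.014), Heatr1 (0.065), Asns (0.19), Jchain (−1.92), S100a9 (−0.97), Xcr1 (−0.38), Psmb9 (−0.20), Psmb10 (−0.15), Cxcl5 (−0.99), Krt1 (0.70), Cdsn (1.77), Dsg1a (3.86), Esr1 (−0.083) and mt-Nd3 (−0.14). They turned with limma-voom for Cdkn1a (−0.41) and Dsg1a (0.54). Leaving out 1 library gave values from −0.25 (without combination replicate 4) to 0.89 for Cd8a, from −0.48 (without combination replicate 3) to 0.28 for Cdkn1a, with −0.0086 without vehicle replicate 1, and from −5.02 to 0.47 (without vehicle replicate 3) for Dsg1a. Genes under about 1 CPM, such as Klrd1, Spic and Cd8b1, rest on few reads, and depth limits what can be read from them.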
